A study of Mus musculus with 15 samples.

Results

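The comparison set the hypothalamus of the HM group against that of the HF group, 6 of the 15 samples of the series, across 17481 genes of the 24831 gene names in the table. Total RNA was sequenced from 15-day-old pups of the outbred CD-1 stock, and the title of the series concerns effects of thyroid hormone on the hypothalamus of the F2 generation. HM and HF had 3 samples each, as had Control, PGM and PGF, and these codes are kept unexpanded, since the labels state neither the ancestor that was exposed nor the sex of the pups. All 5 groups share strain, age and tissue. The values are the authors' mean RPKM of each group (reads scaled to transcript length and to the reads mapped), so no value has an SD, no difference was tested, and the sequencing depth is unknown. A difference is log2(HM + 0.5) minus log2(HF + 0.5) throughout. The samples were taken by title and the genes by a level averaging 1 RPKM or more across the groups, not by how far HM and HF lay apart. The gene lists read below were chosen with earlier results of these data known, so their counts are descriptions and not independent support.

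The hypothalamus is a small region that holds the neurons of the hormone axes and lies against other tissue. The meninges, sheets of fibroblasts, cover its base, arteries ringed with smooth muscle run along it, the pituitary hangs below, the thalamus lies above and the midbrain behind. Meningeal fibroblasts make collagens and small proteoglycans and carry transporters of the barrier between blood and cerebrospinal fluid. Smooth muscle is marked by its contractile proteins and, in arteries, by elastin. Oligodendrocytes form myelin during the first weeks after birth, a process that thyroid hormone promotes.

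Defining markers of the labelled tissue were present, high in both groups and close between them. Pmch, the melanin-concentrating hormone precursor of the lateral hypothalamus, was at 541 RPKM in HM and 544 in HF. Hcrt, the orexin precursor, was at 184.5 and 185.2, and the vasopressin gene Avp at 525 and 521. Oxt, the oxytocin precursor, was at 459 and 418 RPKM.

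HM and HF differed little over most genes. Of the 17481 genes, 11940 or 68.3% lay within 1.1-fold, and the central range from the 5th to the 95th percentile of the differences ran from -0.34 to 0.18. In HM 64 genes were at least 1.5-fold higher (0.366% of all compared) and 229 at least 1.5-fold lower (1.31%). These 293 genes make 1.68% of those compared, and 16 and 30 of them reached 2-fold. The median difference over all genes was -0.05, and 68.6% of genes were lower in HM at any size, so a small negative value is the background against which each list is read. With quantile normalization of the 5 columns the split was 98 higher and 161 lower, or 37.8% higher in place of 21.8%. Of the 229 lower genes HF was the highest of the 5 groups in 190, and of the 64 higher genes HF was the lowest in 37, a share that the choice of genes by this same contrast raises. HF lay nearer to Control than HM did in 157 of the 229 (68.6%) and in 38 of the 64 (59.4%), against 61.4% of all 17481 genes. At the 1.5-fold limit, Lrrc46 at 2.13 against 1.25 RPKM was the last gene counted as higher and Mnk2 at 9.40 against 6.12 the first one left out. On the lower side these were ENSMUSG00000063277 at 30.4 against 46.0 RPKM and Cox6b2 at 7.59 against 11.6.

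**Figure D1:**
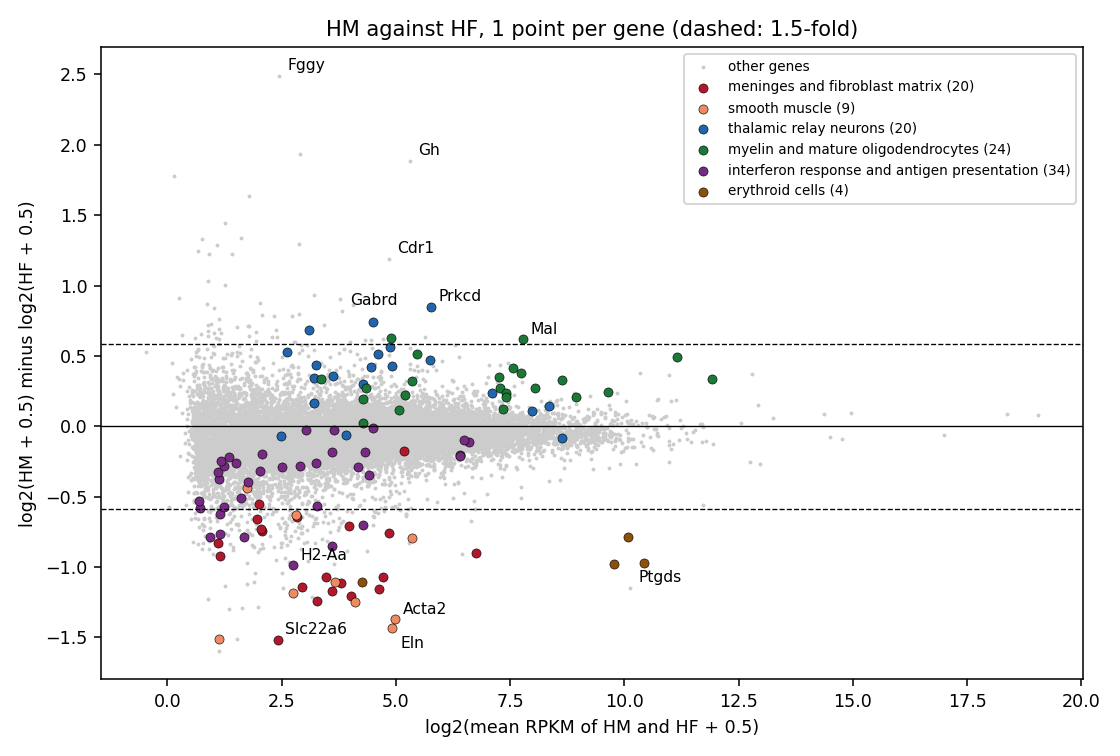
Difference between HM and HF (y axis, log2 scale) against the mean level of both groups (x axis, log2 of RPKM + 0.5), 1 point per gene, with 6 gene lists in colour and dashed lines at 1.5-fold. Meningeal, smooth muscle and erythroid genes lie below the lower line in 18 of 20, 8 of 9 and 4 of 4 members, while Fggy stands at the top with a difference of 2.49.

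Genes of the meninges and their matrix were lower in HM. All 20 kept members were lower, 18 of them at least 1.5-fold, and the median difference was -0.91 against -0.05 over all genes. Slc22a6, an organic anion transporter (chromosome 19, 8618039 to 8628299 in GRCm38), was at 2.26 RPKM in HM and 7.39 in HF, a 2.86-fold lower level on the log2(RPKM + 0.5) scale. Slc13a4, a sulfate transporter, was at 5.25 and 13.1. Fmod, the collagen-binding proteoglycan fibromodulin (chromosome 1, 134037254 to 134048277), was at 9.27 against 21.99 RPKM. The retinoic acid synthesizing enzyme gene Aldh1a2 was at 6.96 against 16.3. The growth factor gene Igf2 was at 74.8 against 140 RPKM, and Col1a1, at 33.4 against 37.6, differed least in the list. In a group mean of bulk tissue, fewer cells of a type and less RNA per cell cannot be told apart, which holds for every list that follows.

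The other groups show where the difference in meningeal genes lay. Against Control the list had a median of -0.72 in HM and 0.20 in HF, and of -0.96 in PGM and -0.55 in PGF. HM was thus among the low groups with PGM and PGF, and HF lay with Control. These other groups also differed in the Y-linked gene Ddx3y, at 2.52 RPKM in Control, 30.4 in PGM and 31.97 in PGF. The part of sex in such placements, here and in later lists, was not tested. Fmod was at 17.6 RPKM in Control, 6.31 in PGM and 10.6 in PGF, and Slc22a6 at 6.22, 2.77 and 3.63. HF was the highest of the 5 groups in 19 of the 20 genes and HM the lowest in 4. Over all genes, the background for such counts here and in later lists, HF was the highest in 24.9% and HM the lowest in 21.96%. The summed level of the list was 232 RPKM in HM, 434 in HF, 379 in Control, 186 in PGM and 257 in PGF, and no member was listed at 0. Ptgds, the prostaglandin D synthase of meninges, choroid plexus and oligodendrocytes (chromosome 2, 25466709 to 25470046), followed the same order with 696 RPKM in HM, 1544 in HF, 1468 in Control, 538 in PGM and 803 in PGF.

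Collagen genes as a family were lower in HM in 30 of 31 members, 9 of them at least 1.5-fold, with a median of -0.47. After centring on the median of all genes 28 of 31 were still lower. Col3a1, a fibrillar collagen shared with the meningeal list, was at 14.7 against 33.4 RPKM, and Col5a1 at 3.10 against 7.48. Col6a1 was at 7.99 against 15.6 and the basement membrane collagen Col18a1 at 5.34 against 9.06. Col25a1, a neuronal transmembrane collagen, was the only member higher in HM, at 70.9 against 69.3 RPKM. Other members differed as little, such as Col9a3 by -0.01, Col5a3 by -0.03 and Col20a1 by -0.06, so the size of the difference varied widely within the family.

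Smooth muscle genes made the second block, and here HF stood apart from all 4 other groups. All 9 kept members were lower in HM, 8 at least 1.5-fold, with a median of -1.19. Acta2, smooth muscle actin (chromosome 19, 34241090 to 34255590), was at 17.2 RPKM in HM and 45.3 in HF, against 19.6 in Control, 14.9 in PGM and 22.6 in PGF. Eln, the elastin of arterial walls (chromosome 5, 134702593 to 134747323), was at 15.9 and 43.8, against 24.7, 17.9 and 19.9. HF was the highest group for both. HM was the lowest group for Eln and lay between PGM and Control for Acta2.

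Tagln, an actin-binding protein also called transgelin, was at 9.72 RPKM in HM and 23.7 in HF, with 11.4, 9.97 and 12.8 in Control, PGM and PGF. The smooth muscle myosin gene Myh11 was at 3.61 against 8.86, and Cnn1, the regulatory protein calponin, at 0.64 against 2.74 RPKM. Cnn1 passed the filter on low values only through HF, since its mean over the other 4 groups was 0.754 RPKM. Without it 8 of 8 members were lower, 7 at least 1.5-fold, with a median of -1.15. Des, the intermediate filament desmin, was under 1.5-fold at 2.32 against 3.33. HF was the highest of the 5 groups for 9 of 9 members and HM the lowest for 6, and the list's median against Control was 1.02 in HF, -0.18 in HM, -0.19 in PGM and 0.16 in PGF. The summed level was 206 RPKM in HF and between 91.0 and 112 in the other groups. So the meningeal and smooth muscle lists both separated HM from HF, but meningeal genes put HM with PGM and PGF, whereas for smooth muscle genes the median of HF stood apart from those of the other groups.

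The CArG box, to which the factor SRF binds in many smooth muscle genes, was searched in RefSeq promoters (GRCm38.p6, 250 bases before to 50 after a start) as CC, then A or T at each of the middle positions, then GG, a pattern that reads the same on both strands. Not every RefSeq promoter was in the search. Among single promoters the box was found in 1.63% of the 32851 searched. With a member counted when any of its promoters matched, the box was found in 1 of the 6 smooth muscle members with a promoter among those searched. That member was Myl9, the regulatory myosin light chain, at 29.5 RPKM in HM and 51.6 in HF, and its promoter (chr2:156775214-156775513, plus strand) is shown because it is the only one with a match, in capitals.
Myl9: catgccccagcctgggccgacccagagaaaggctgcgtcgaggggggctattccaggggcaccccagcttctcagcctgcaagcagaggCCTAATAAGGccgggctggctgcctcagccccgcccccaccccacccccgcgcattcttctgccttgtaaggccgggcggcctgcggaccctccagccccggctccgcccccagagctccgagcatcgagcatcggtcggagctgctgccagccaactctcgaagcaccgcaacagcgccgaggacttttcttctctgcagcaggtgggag
The match describes these letters only, and no binding was measured.

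Markers of endothelium and pericytes were lower in HM in 17 of 19 members but by less, with a median of -0.28 and 1 member at 1.5-fold. That member was Vwf, the clotting factor stored in endothelium, at 5.21 against 9.67 RPKM. Pdgfrb, a receptor of pericytes, was at 14.3 against 21.4, Vtn at 85.2 against 123 and the VEGF receptor gene Kdr at 9.13 against 12.5. Cldn5, the tight junction protein of the blood-brain barrier, was at 81.3 against 99.6 RPKM, and Ly6c1 went the other way with 79.6 against 76.0. The medians of the endothelium and pericyte list and of the smooth muscle list were thus -0.28 and -1.19.

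All 4 kept erythroid genes had lower levels in HM, each past 1.5-fold, and their median was -0.97. Alas2, the erythroid enzyme of heme synthesis (X chromosome, 150547375 to 150570638), was at 11.7 RPKM in HM and 25.8 in HF, with 30.5 in Control, 13.3 in PGM and 20.4 in PGF. The globin genes Hbb-b1 and Beta-s were at 589 against 1162 and at 930 against 1821, and as close paralogs they are uncertain as single genes. HM was the lowest of the 5 groups for each of the 4. Whether the amount of blood left in the tissue bears on this was not tested.

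**Figure D2:**
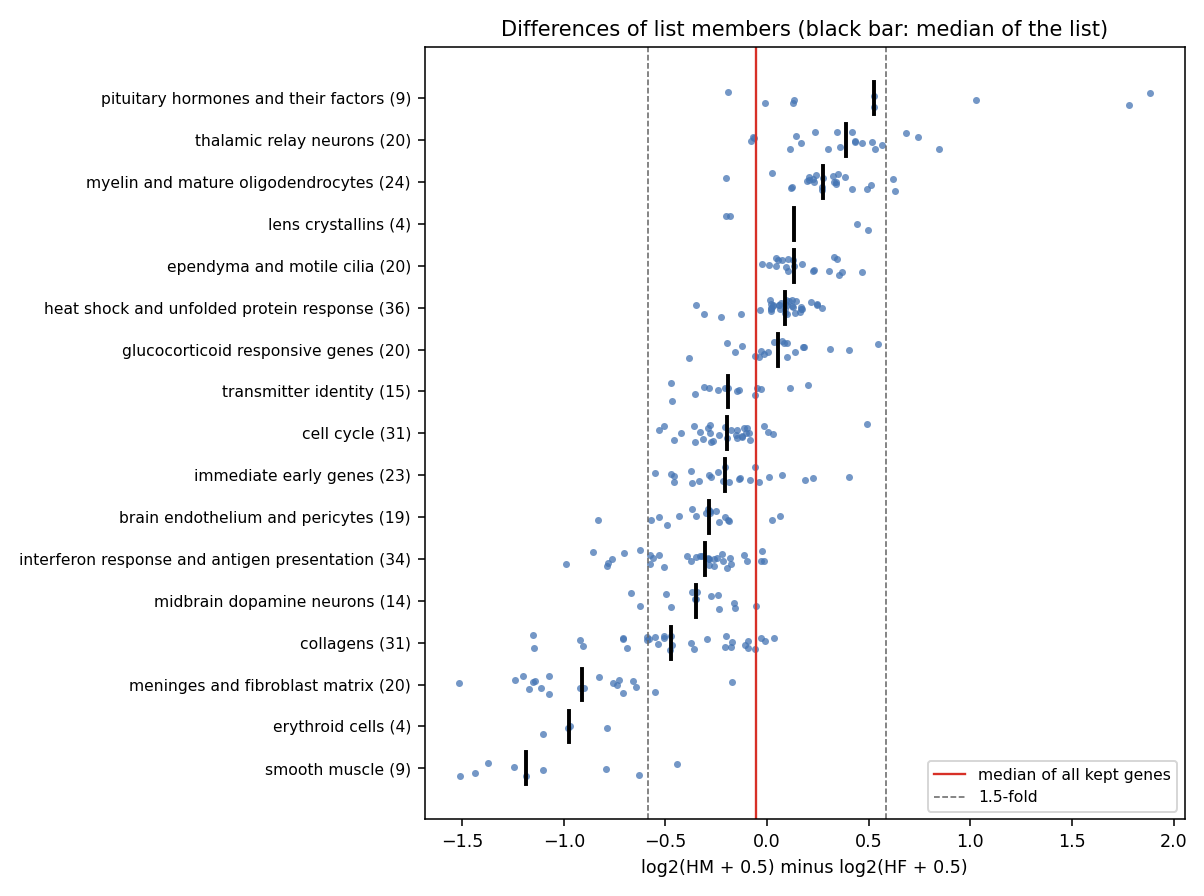
Differences between HM and HF (x axis, log2 scale) of the members of 17 gene lists, 1 point per gene, with the median of each list as a black bar and of all genes as a red line. Smooth muscle, erythroid and meningeal lists have medians of -1.19, -0.97 and -0.91, and thalamic and myelin lists medians of 0.39 and 0.27.

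Genes of the interferon response and of antigen presentation were lower in HM in 34 of 34 members, 7 of them at least 1.5-fold, with a median of -0.30. Rsad2 and Usp18 passed the filter on low values only through HF, and without them 32 of 32 were lower with a median of -0.29. After centring on the median of all genes 31 of 34 were lower. H2-Aa, a chain of the class II molecule that presents peptides to T cells (chromosome 17, 34282744 to 34287823), was at 3.97 RPKM in HM and 8.37 in HF, with 4.98 in Control, 4.58 in PGM and 5.90 in PGF. Cd74, its invariant chain, was at 8.13 against 15.1. Psmb8 and Psmb9, subunits of the immunoproteasome, were at 1.83 against 3.51 and at 0.90 against 1.92. Ifitm3, an antiviral membrane protein, was at 14.3 against 23.6 RPKM. The class I genes H2-D1 and B2m differed by less, at 86.1 against 92.2 and at 78.0 against 90.5. So did H2-Ab1, another class II gene, at 18.3 against 20.8 RPKM, a difference of -0.18.

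HF was the highest of the 5 groups in 25 of these 34 genes, against 24.9% of all genes. HM was the lowest in 10 of the 34, against 21.96% of all genes. The medians against Control were 0.28 in HF and -0.10 in HM. Microglia, the resident immune cells of the brain, had no member at 1.5-fold among 17, and a median of -0.09. The lowest values there were -0.32 for Fcrls and -0.24 for P2ry12, a purine receptor, against -0.99 for H2-Aa. Fibroblasts and vessel cells also carry interferon-response genes, and the part of the lower meningeal and vessel markers in this list was not tested.

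The promoters of 2 interferon-induced members that were past 1.5-fold are shown with the core of the interferon-stimulated response element, GAAANNGAAA or its reverse complement TTTCNNTTTC, in capitals. Ifit1, which binds viral RNA, was at 1.15 RPKM in HM and 2.30 in HF (chr19:34640639-34640938, plus strand), and its window holds 2 matches.
Ifit1: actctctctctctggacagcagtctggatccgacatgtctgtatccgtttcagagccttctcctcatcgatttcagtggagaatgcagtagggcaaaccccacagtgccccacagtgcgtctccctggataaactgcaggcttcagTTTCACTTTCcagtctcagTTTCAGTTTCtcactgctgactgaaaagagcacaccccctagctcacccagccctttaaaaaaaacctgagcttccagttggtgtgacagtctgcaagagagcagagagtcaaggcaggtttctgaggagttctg
Isg15, a ubiquitin-like modifier, was at 1.25 and 2.20 RPKM (chr4:156200769-156201068, minus strand), and its window holds 3 matches that overlap.
Isg15: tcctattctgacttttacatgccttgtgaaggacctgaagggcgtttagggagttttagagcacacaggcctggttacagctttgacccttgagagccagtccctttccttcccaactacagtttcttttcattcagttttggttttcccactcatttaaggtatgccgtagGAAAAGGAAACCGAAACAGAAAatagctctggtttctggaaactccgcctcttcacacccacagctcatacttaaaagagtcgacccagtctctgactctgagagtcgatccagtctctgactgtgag
The element was found in 14 of the 26 members with a promoter among those searched (53.8%), against 3.44% of the 32851 RefSeq promoters searched. The first share counts a member when any of its promoters matched, whereas the second counts single promoters. Psmb8, Psmb9 and H2-Aa are members past 1.5-fold that have no match in this window, and Bst2 and Stat2 have a match but differed by -0.01 and -0.02. Presence of these letters thus did not follow the size of the difference gene by gene.

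**Figure D3:**
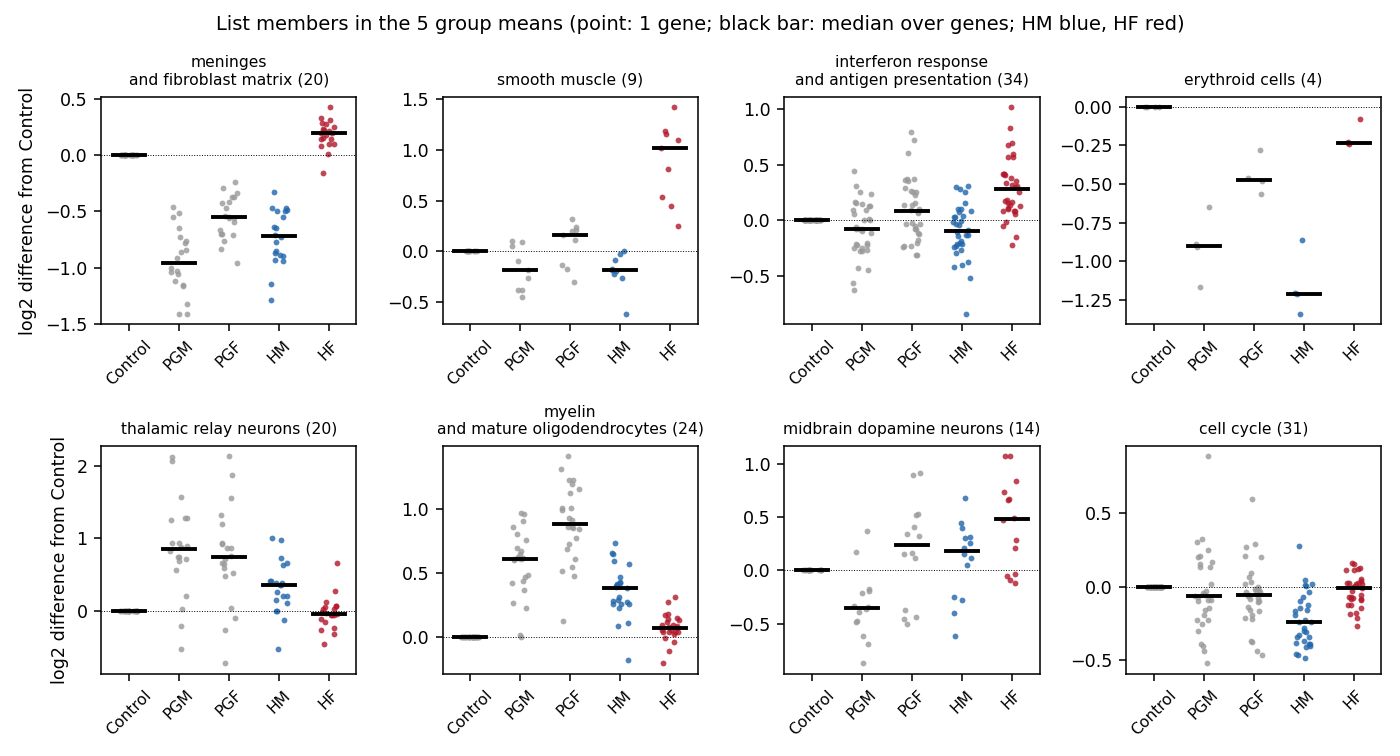
Members of 8 gene lists in the 5 group means, as log2 difference from Control (y axis), 1 point per gene with the median as a black bar, HM in blue and HF in red. HF stands apart for smooth muscle (median 1.02), lies with Control for meningeal and thalamic genes (0.20 and -0.04), and HM lies between Control and PGM for thalamic and myelin genes (0.36 and 0.39).

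Markers of thalamic relay neurons were higher in HM in 17 of 20 members, 3 of them at least 1.5-fold, and the median was 0.39. Among them Prkcd, a kinase of the protein kinase C family (chromosome 14, 30595354 to 30626210), was at 69.2 RPKM in HM and 38.2 in HF, with 35.0 in Control, 154 in PGM and 156 in PGF. Synpo2 was at 10.1 against 6.08 and Ptpn3, a tyrosine phosphatase, at 27.6 against 16.3. HM lay between Control and the PG groups for these 3 genes, and HF lay within 1.1-fold of Control.

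Ramp3, a partner of the calcitonin receptor family, was at 34.4 against 23.1 RPKM, and the transcription factor gene Rora at 61.5 against 44.3. Calb2, the calcium buffer calretinin, went the other way at 386 against 408. The list's median against Control was 0.36 in HM, -0.04 in HF, 0.85 in PGM and 0.74 in PGF, and its summed level was 1515 RPKM in HM, 1350 in HF, 1338 in Control, 1964 in PGM and 1897 in PGF. Gabrd, an extrasynaptic GABA receptor subunit that is abundant in thalamus (chromosome 4, 155384980 to 155398112), followed the same order with 17.5 RPKM in HM, 9.72 in HF, 8.28 in Control, 43.7 in PGM and 42.2 in PGF. Shox2, a transcription factor of thalamic neurons, was at 20.9 against 11.3, and Rab37, a small GTPase of secretory vesicles, at 11.5 against 5.80. Markers of cortical excitatory and striatal neurons had medians of -0.03 and -0.06, close to the -0.05 of all genes. Whether a different share of thalamus in the samples bears on these genes was not tested.

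Of the 24 myelin genes 23 had the higher level in HM, 2 reached 1.5-fold, and the median was 0.27. Mal, a membrane protein of compact myelin (chromosome 2, 127633226 to 127656695), was at 265 RPKM in HM and 173 in HF, with 159 in Control, 311 in PGM and 425 in PGF. Ermn, a cytoskeletal protein of the outer myelin layers, was at 35.7 against 22.9. Mbp, myelin basic protein, was at 4352 against 3440 RPKM. The order of the groups, with PGF above PGM, then HM, then HF and Control, held for both Mal and Mbp.

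Apod, a lipocalin, was the only myelin list member that was lower, at 78.5 against 90.4 RPKM. Markers of oligodendrocyte precursors had a median of -0.14, with 10 of 11 members lower and none at 1.5-fold. Their largest difference was that of Bmp4, at -0.34. The median of the precursor list lies within 0.1 of that of all genes. Mature and precursor markers hence had opposite signs, with the precursor values small.

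Genes of ependyma and motile cilia, which line the third ventricle, were higher in HM in 19 of 20 members, none at 1.5-fold, with a median of 0.13. Foxj1, the master regulator of motile cilia, was at 15.9 against 13.5 RPKM, Rsph1, a radial spoke protein, at 12.3 against 9.43, and Stoml3 at 4.05 against 2.79. HM was the highest of the 5 groups for 13 of the 20, against 7.66% of all genes. Markers of tanycytes and of choroid plexus, also cells of the ventricle wall, had medians of -0.04 and -0.03.

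Most pituitary hormone genes were lower in HF. Gh, growth hormone (chromosome 11, 106300271 to 106301865), was at 62.1 RPKM in HM and 16.5 in HF, against 39.8 in Control, 59.7 in PGM and 1363 in PGF. Prl, prolactin, was at 1.22 in HM and listed at 0 in HF, and Lhb, the luteinizing hormone subunit, was at 1.99 against 0.72. Cga, the subunit common to the glycoprotein hormones, was at 20.8 against 18.9, and Pomc, expressed in arcuate neurons as well as in pituitary, at 22.4 against 20.5. Over all 15 genes listed, 3 were at 0 in HF, 1 in Control and none in HM. Of 9 kept members 7 were higher in HM and 3 at least 1.5-fold, with a median of 0.53 that was 0.33 without Prl and 0.18 after quantile normalization. Prl and Fshb, a subunit of follicle-stimulating hormone at 0.35 against 0.09 RPKM, passed the filter on low values only through PGF, and the median is that of Fshb. Without both, 5 of 7 members were higher in HM, 2 of them past 1.5-fold, and the median was 0.13. Differences of Gh and Prl therefore stood beside nearly equal levels of Cga and Pomc, and the amount of pituitary tissue in the samples was not tested.

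Markers of midbrain dopamine neurons were lower in HM in 14 of 14 members, 2 of them at least 1.5-fold, with a median of -0.35. After centring on the median of all genes 13 of 14 were lower and 1 was past 1.5-fold. Slc6a3, the dopamine transporter (chromosome 13, 73536747 to 73578672), was at 76.9 RPKM in HM and 123 in HF, with 58.1 in Control, 45.9 in PGM and 110 in PGF. En1, a transcription factor of the midbrain, was at 3.08 against 5.02, a difference of -0.62 that was -0.57 after centring and -0.53 after quantile normalization, under the 1.5-fold limit. Th, the rate-limiting enzyme of dopamine synthesis, was at 74.3 against 103, and Slc18a2, the vesicular monoamine transporter, at 37.6 against 48.2. HF was the highest group for 8 of the 14, against 24.9% of all genes. The medians against Control were 0.48 in HF, 0.18 in HM, -0.35 in PGM and 0.24 in PGF.

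Hypothalamic dopamine neurons share Th, Ddc and Slc18a2 with those of the midbrain, while Slc6a3 and En1 are more typical of the midbrain. For transmitter identity 13 of 15 genes were lower, none at 1.5-fold, and the median was -0.19. After centring 11 of 15 were lower. The low values came from the monoamine and cholinergic members, such as the choline acetyltransferase gene Chat at 5.54 against 6.995 RPKM and the vesicular acetylcholine transporter gene Slc18a3 at 7.35 against 10.3. The GABA enzyme genes Gad1 and Gad2, at 169 against 173 and at 186 against 194, were nearly equal.

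Among response genes the differences were small. Immediate early genes, which neurons induce within minutes of activity, had a median of -0.20, 18 of 23 being lower in HM and none at 1.5-fold. Nr4a1 was at 8.21 against 12.3 RPKM, Junb at 26.5 against 36.6 and Fos at 30.4 against 37.2, while Fosb went the other way with 2.52 against 1.78. The cell cycle list had 28 of 31 genes lower and a median of -0.20, and 24 of 31 were lower after quantile normalization. Mki67, a protein of dividing cells, was at 1.70 against 2.63 RPKM, Mcm3, a helicase subunit of replication, at 2.0 against 3.11, and Top2a at 2.56 against 3.31. The transcription factor gene E2f1 went the other way at 1.4 against 0.85 RPKM, a difference of 0.49. HM was the lowest of the 5 groups for 17 of the 31 cell cycle genes, against 21.96% of all genes.

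Genes that respond to glucocorticoids had a median of 0.05, higher in 12 of 20 members, and none was at 1.5-fold. Map3k6 passed the filter on low values only through HM, and without it 11 of 19 were higher with a median of 0.07. Zbtb16, a repressor of transcription, was at 16.7 RPKM in HM and 11.3 in HF, with 9.54, 10.3 and 11.2 in Control, PGM and PGF, and Fkbp5, which restrains hormone binding by the receptor, at 21.2 against 15.9. HM was the highest of the 5 groups for both. Angptl4, an inhibitor of lipoprotein lipase, went the other way at 10.9 against 14.4, as did Errfi1 and Nfkbia by -0.20 and -0.16. Klf9 and Per1, other targets of glucocorticoids, were nearly equal at 106.1 against 105.9 and at 21.1 against 21.5. Chaperones and genes of the unfolded protein response had a median of 0.09, with 31 of 36 higher in HM and none past 1.5-fold. The cytosolic chaperone genes Hspa1a and Hspa1b, near-identical copies, were at 14.9 against 12.5 and at 16.8 against 13.9, and Hspa5, the chaperone of the endoplasmic reticulum, at 516 against 462 RPKM. The largest differences in the list had the opposite sign, with the small heat shock protein gene Hspb8 at 21.4 against 27.4 and its partner Bag3 at 5.28 against 6.66.

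The largest difference of all came from a gene outside the lists described above. Fggy, which encodes a carbohydrate kinase (chromosome 4, 95557507 to 95926939), was at 8.78 RPKM in HM and 1.16 in HF, with 8.6 in Control, 5.20 in PGM and 5.84 in PGF. HF was the group that stood apart, 5.61-fold below HM on the log2(RPKM + 0.5) scale. The 4 transcripts of Fggy in the table differed alike, by 2.48, 2.50, 2.51 and 2.72. As RPKM is never negative, an HF mean this low needs all 3 HF samples to be low, if it is a plain average of the 3. How far the 3 HF samples differ among themselves is hidden by the authors' mean.

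Cdr1 (X chromosome, 61184005 to 61185558) was at 39.7 RPKM in HM and 17.1 in HF, with 40.3, 34.5 and 30.2 in Control, PGM and PGF. An antisense RNA, known mainly in circular form, overlaps this gene, and without stated strand handling their reads cannot be told apart. Agxt2l1, an ethanolamine phosphate lyase of astrocytes now named Etnppl (chromosome 3, 130617448 to 130637521), was at 10.03 RPKM in HM and 3.79 in HF, with 2.65 in Control, 10.3 in PGM and 9.95 in PGF. HM thus lay with PGM and PGF for this gene, as for the meningeal list, and HF near Control. Cox6a2, the muscle form of a cytochrome oxidase subunit, was at 17.4 against 9.09 RPKM, and the serum albumin gene Alb at 12.96 against 7.68. Ucn, a peptide that binds the receptors of corticotropin-releasing hormone, was at 3.71 against 2.07, with 1.35, 0.73 and 1.16 in Control, PGM and PGF. Bcl2a1a was at 2.10 against 0.95 RPKM, and the presence of close paralogs such as Bcl2a1d makes it uncertain as a single gene.

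Further genes with low levels in HM were on none of the lists. Wnt6, a secreted ligand, was at 1.78 RPKM in HM and 5.06 in HF, and Itih2, which stabilizes hyaluronan matrix, at 4.86 against 11.9. Cytl1, a secreted cytokine-like protein, was at 0.995 against 3.76, with 1.28, 1.44 and 1.66 in the Control, PGM and PGF groups, so HF was again the highest. Isg20, an interferon-induced exonuclease, was at 0.61 against 2.10 RPKM and passed the filter on low values only through HF, with a mean of 0.97 over the other 4 groups. Of 182 lower genes with a functional name, 159 had at least 2 RPKM in HM or HF.

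**Figure D4:**
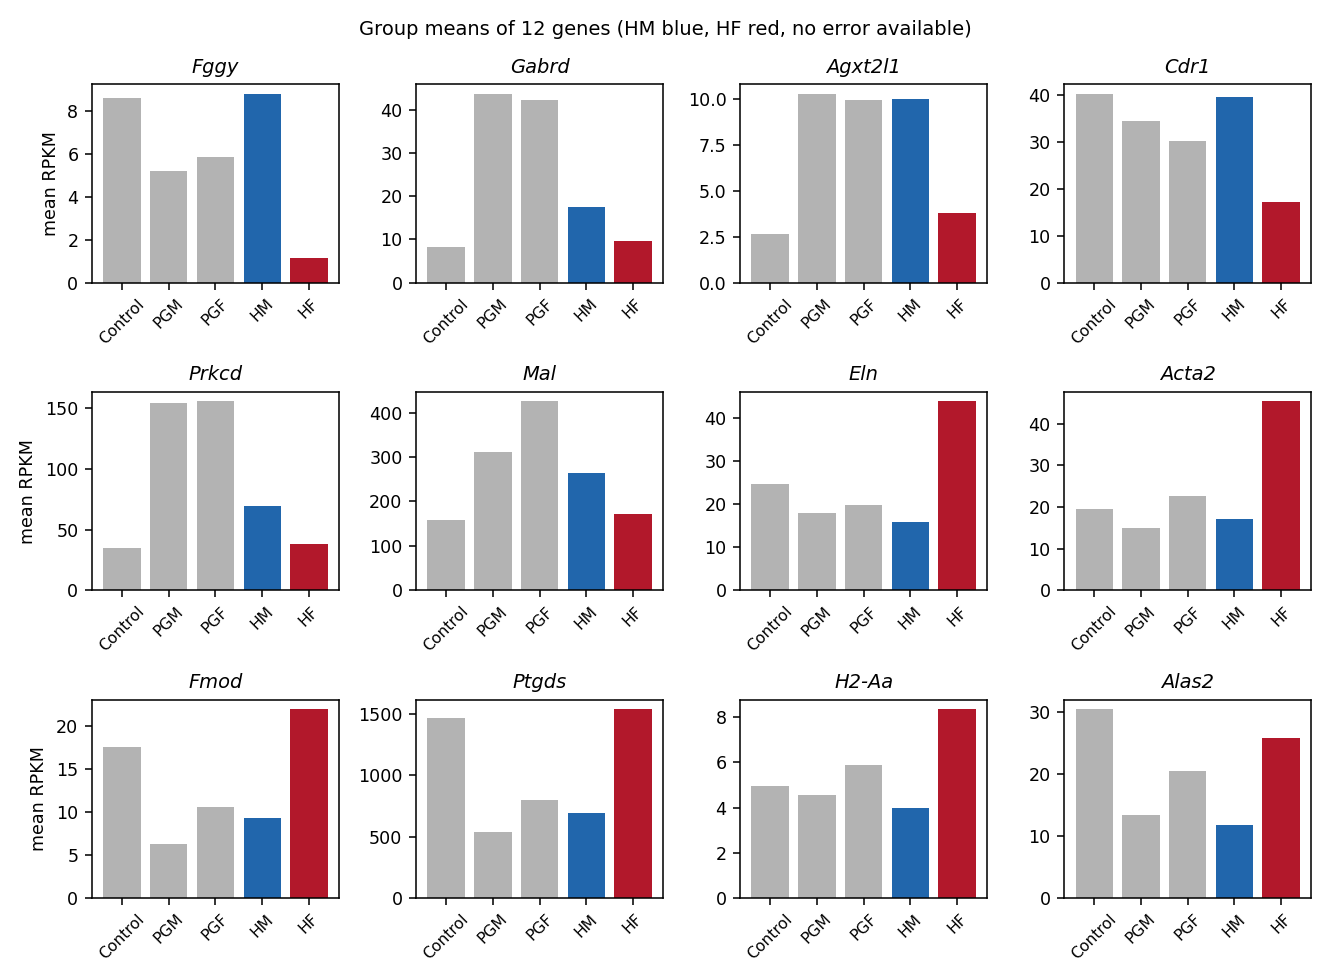
Mean RPKM (y axis, from 0) of 12 genes in the 5 groups, 1 bar per group mean with no error available, HM in blue and HF in red. Fggy and Cdr1 are lowest in HF at 1.16 and 17.1 RPKM, Eln and Acta2 highest in HF at 43.8 and 45.3, and Prkcd and Mal lie in HM between HF and the PGM and PGF groups.

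The genes of the thyroid hormone axis named here differed by less than 1.5-fold between HM and HF. Trh, the hypothalamic hormone that drives thyrotropin, was at 111 RPKM in HM and 124 in HF, with 135 in Control, 87.9 in PGM and 75.9 in PGF. Dio2, the deiodinase that activates the hormone, was at 21.6 against 16.8, a difference of 0.36 and the largest positive one in its list. Dio3, which inactivates it, was at 0.92 and 1.06 RPKM and did not reach the expression filter. The receptor genes Thra and Thrb were at 383 against 412 and at 11.9 against 10.3. The differences of Dio2 and Thrb, 0.36 and 0.21, lay above the 95th percentile of all genes, 0.18.

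Genes that carry, convert or bind thyroid hormone made a list of 28 kept members, with none at 1.5-fold and a median of -0.06. Genes that respond to the hormone had a median of -0.08 over 39 members, and the 4 that were at least 1.5-fold lower included the matrix genes Col6a1 and Col6a2. Hr, a corepressor and direct target, was at 28.9 RPKM in HM and 24.0 in HF, with 21.9, 32.7 and 31.1 in Control, PGM and PGF. These lists did not stand apart from all genes by the limit of 0.1 in the median.

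Most of the appetite and pituitary-regulating peptides named here also lay close. Agrp, which stimulates feeding, was at 18.1 RPKM in HM and 16.2 in HF, both above the 12.7 of Control, and Cartpt, which suppresses it, at 175 against 150 with 108 in Control. The difference of Cartpt, 0.23, lay above the 95th percentile of all genes, 0.18. Npy was at 100.5 against 103, Crh at 10.6 against 11.5, Ghrh at 11.0 against 11.4, Sst at 256 against 260, Gnrh1 at 9.69 against 11.7 and Kiss1 at 2.34 against 2.73. Of 42 neuropeptide and hormone genes 2 were at least 1.5-fold higher in HM and none lower, with a median of -0.02. Transcription factors of the hypothalamus had a median of -0.13 over 29 members and none at 1.5-fold. The medians of these lists thus lay nearer to that of all genes than those of the meningeal and smooth muscle lists.

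Sex-linked genes differed less between HM and HF than between Control and the PG groups. Ddx3y, a Y-linked helicase, was at 16.7 RPKM in HM and 15.9 in HF, with 2.52 in Control, 30.4 in PGM and 31.97 in PGF. Xist, the RNA of the inactive X, was at 26.4 and 35.4, with 44.0, 14.2 and 11.6, and its antisense partner Tsix cannot be told apart from it without strand. The labels give no sex, and its part in any difference, or in which other groups HM and HF lay near, was not tested.

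Small RNA genes had many large differences at low levels. Of 73 microRNA precursors 8 lay above and 10 below the 1.5-fold limits in HM, and the median was -0.08. An RPKM of a short hairpin can rest on few reads, and it measures the precursor or its host and not the mature form. The 4 with the largest differences were Mir707 at 4.68 RPKM in HM against 1.17 in HF, Mir744 at 0.59 against 2.79, Mir654 at 3.01 against 0.79 and Mir344-2 at 0.98 against 3.14. Mir744 was among 9 of the 73 that passed the filter only through their highest group, and the median of the other 64 was -0.0089. The mature RefSeq sequences of the 2 that were higher in HM, then of Mir744, follow with the seed (bases 2 to 8) in capitals, to show that they share no seed.
miR-707: cAGUCAUGccgcuugccuacg
miR-654-5p: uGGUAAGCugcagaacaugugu
miR-654-3p: uAUGUCUGcugaccaucaccuu
miR-744-5p: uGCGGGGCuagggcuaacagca
miR-744-3p: cUGUUGCCacuaaccucaaccu
Small nucleolar and Cajal body RNAs had a median of 0.01 over 83 genes, with 6 higher and 4 lower at 1.5-fold.

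Of the 53 gene lists with at least 3 kept members, 35 had a median within 0.1 of that of all genes and fewer than 20% of members at 1.5-fold. Their medians ran from -0.14 to 0.03. HM had the lower level in 60 of 60 replication-dependent histone genes and in 76 of 78 cytosolic ribosomal protein genes, at medians of -0.11 and -0.10, close to that of all genes. Other lists among the 35 were astrocytes (-0.0035 over 21 members), general neuronal genes (-0.01 over 19), potassium, sodium and calcium channels (-0.03 over 41), nuclear genes of oxidative phosphorylation (-0.05 over 93), imprinted genes (-0.07 over 51) and enzymes that modify DNA and histones (-0.08 over 50). Within them single genes did differ, such as Sox9, a transcription factor of glia, and the imprinted H19, with differences of 0.61 and -0.61. Of the lens crystallins 4 of 15 were kept, with Cryab, a small heat shock protein of glia as well as lens, at 45.4 against 33.2 RPKM and Crybb1 at 13.01 against 15.0.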

How the data were processed

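Hypothalamic total RNA of 15 samples was sequenced, 3 in each of 5 groups, and groups were taken from the sample titles. The authors deposited RPKM values of 49404 transcripts in 1 column per group, per the file headers. The name given to the table calls them averages, and which samples entered each average is not stated further. Reads were checked with FastQC and aligned with Novoalign 2.08 to mm10, per the submitters' processing notes. How reads were counted, whether strand was used and how deep libraries were is information not given in the sources used here. No interval can be given, because the values hold only 1 mean per group. RPKM depends on what other genes take of a library, and a mean hides a sample that stands apart.

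A repeated header line was dropped, and each gene name took the median of its transcripts (11394 names had several). Genes whose average across the groups reached 1 RPKM were kept, 70.4% of names. Differences are of log2(RPKM + 0.5), which understates those of low genes, and genes were counted at 1.5-fold with no test. The 54 gene lists were read by counts and medians, and described where the median lay at least 0.1 from that of all genes or at least 20% of members were at 1.5-fold. Genes were named by a rule: the 15 with the largest difference in each direction with at least 2 RPKM in HM or HF, without small RNAs and names lacking a function, a fixed panel of hormone genes, and up to 5 members per described list. Not every gene the rule takes is printed, and others given as examples were picked with their values in view. The members and lists were chosen with earlier results of these data known. Of the gene symbols listed 1020 matched exactly, 19 through a synonym and 9 not at all. Positions are those of GENCODE M21, on GRCm38 (mm10), and promoters and miRNAs those of RefSeq on GRCm38.p6. The calculations were tested on simulated data. Python 3.11.15, numpy 2.4.6, pandas 2.3.3 and matplotlib 3.10.9 were used. Alternatives were other pseudocounts, filters, scalings, transcript summaries and a 2-fold threshold. Results for some items withheld for evaluation are not reported here.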

Additional observations from a re-analysis of the deposited data

How the results depend on the processing

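The direction of 16 described lists was kept under every alternative run, and 55 of the 56 named genes past 1.5-fold stayed past it under each pseudocount, scaling and transcript summary. En1 was the exception. The lens crystallin median, 0.13, was -0.057 with no filter, and the glucocorticoid median, 0.05, was -0.0068 over its 8 genes with 1 transcript, an alternative added after seeing the data. The numbers of higher and lower genes, 64 and 229, were 152 and 368 with no filter, 37 and 145 at a mean of at least 3 RPKM and 16 and 30 at 2-fold. There were 98 higher genes after quantile normalization, and 36 without small RNAs and names that carry no function, an alternative added after seeing the data. The pituitary median of 0.53 was 0.31 with a pseudocount of 1, 0.15 with no filter, 0.33 at 3 RPKM, 0.18 after quantile normalization and, added afterwards, 0.33 without the gene listed at 0 and 0.13 without the genes that passed the filter only through their highest group. The meningeal median was -1.06 with a pseudocount of 0.1, the collagen median -0.33 with no filter and -0.37 over genes with 1 transcript (added afterwards), and the dopamine median -0.24 after quantile normalization. The causes were not tested, except that the filters and the 2-fold limit change how many genes can be counted. No paired analysis was possible because the table holds 1 mean per group, and for the same reason no replicate could be left out.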
